A study of Mus musculus with 6 samples.

Results

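MAP kinase phosphatases and ERK feedback genes were followed, 10 in all, in activated CD4+ T cells in which the checkpoint receptors PD1 or Lag3 had been blocked. The set is a list of names with no threshold on measured values: 6 dual-specificity phosphatases (Dusp1, Dusp2, Dusp4, Dusp5, Dusp6 and Dusp10), the Ras-ERK inhibitors Spry1 and Spred1, the kinase Map2k3 and the transcription factor Elk1. The names were chosen with earlier results of these data known. All 10 had an identifier in the table of 47643 and all passed the filter of at least 10 reads over the 6 samples, as did 11877 genes in all. The cells came from Tg4 Nr4a3-Tocky mice, which also carry an Il10-GFP (Tiger) reporter. Their CD4+ T cells express a transgenic receptor for a myelin basic protein peptide, and the fluorescent Timer protein driven by Nr4a3 turns from blue to red after receptor signalling. Every mouse received 80 μg of peptide, then 24 h later 800 μg of an isotype pool, anti-PD1 or anti-Lag3, and 30 min after the antibody a further 8 μg of peptide for 4 h. Splenic CD4+ cells that were blue and red together were sorted. The paper takes almost all such cells as having responded to both peptide doses. Cells that did not signal again and stayed red alone were not measured. The groups were isotype, anti-PD1 and anti-Lag3, with 2 biological replicates each. The isotype pool was an equal mix of rat IgG1 and rat IgG2a, the classes of the anti-Lag3 and anti-PD1 antibodies. Mice of both sexes were used in the study, and their ages are not given in the sources used here. All groups share the transgenes and both peptide doses, and the 2 antibody groups share the same 2 isotype samples.

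When the T cell receptor is triggered, Ras activates the Raf, MEK and ERK kinases in turn, and ERK phosphorylates transcription factors such as ELK1, which together with SRF switches on immediate early genes. Among the genes switched on are inhibitors of the same pathway: DUSP proteins remove the phosphates from ERK, JNK or p38, and Sprouty and Spred proteins act further up, at Ras and Raf. MAP2K3 belongs to the parallel p38 branch, which it activates by phosphorylation.

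The libraries held 2107715 to 2648920 reads. A count of 3 reads, taken as the floor of detection, was worth 1.11 to 1.44 CPM, the reads of a gene per 1000000 reads of the library after TMM scaling. QuantSeq libraries give about 1 read per transcript at its 3′ end, so levels were compared between genes without division by length. Replicates of a group differed by more than counting noise, with a chi-square per degree of freedom of 2.65 to 3.29. The 7 T cell markers summed to 1382 to 1669 CPM, while dendritic and NK cell markers summed to at most 1.88 CPM. The 7 B cell markers summed to 101 to 111 CPM in isotype, 49.1 to 60.4 CPM in anti-PD1 and 74.6 to 114 CPM in anti-Lag3, with Cd79a at 0 reads throughout. The 9 macrophage and monocyte markers summed to 55.5 to 75.4, 19.2 to 35.2 and 35.0 to 35.7 CPM in the same order, and the 2 CD8 T cell markers to 48.3 to 54.7, 29.8 to 34.5 and 32.7 to 33.7 CPM. The 3 neutrophil markers summed to 7.54 to 19.7, 5.32 to 6.71 and 1.49 to 4.22 CPM, and the 3 erythroid markers to 23.7 to 33.5, 9.10 to 25.4 and 12.7 to 29.0 CPM. Against isotype, the B cell, macrophage, CD8 and neutrophil sums were lower in both anti-PD1 samples and the erythroid sums overlapped. The T cell sum was also lower in both, at 1382 to 1491 CPM beside 1519 to 1629 in isotype and 1533 to 1669 in anti-Lag3. Of the 7 T cell markers, 5 were fitted lower in anti-PD1 than in isotype, 2 higher, and none was called. Ighm of the B cell list (log2 fold change -0.89, edgeR adjusted p = 0.00836) and C1qa of the macrophage list (-2.59, edgeR adjusted p = 0.0266) were called lower in anti-PD1. The part of these cells in the results below was not tested. In sorted bulk cells, more RNA per cell and more cells expressing a gene cannot be told apart.

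In isotype, the order of levels was led by Dusp2, a nuclear phosphatase induced early after activation, at 137 ± 16.4 CPM (SD, n = 2). Dusp5, a nuclear phosphatase that acts on ERK and holds it in the nucleus, followed at 64.9 ± 3.53 CPM, and Map2k3 stood beside it at 62.0 ± 10.9 CPM. The samples of Dusp5 and Map2k3 overlapped, so their order was not resolved. Spred1 had 24.8 ± 3.69 CPM, Dusp4 had 18.9 ± 4.56 CPM and Dusp6 had 17.2 ± 0.375 CPM. Spred1 overlapped with Dusp4, and Dusp4 with Dusp6. The lowest set was Dusp10, Dusp1, Elk1 and Spry1, at means of 3.32 to 4.81 CPM, and their samples overlapped from neighbour to neighbour. In anti-PD1 Dusp2 again had the highest level, followed by Dusp5 and Map2k3, which overlapped, and Elk1 at 18.9 CPM and Spry1 at 10.5 CPM stood above Dusp1 and Dusp10 in both samples.

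**Figure D1:**
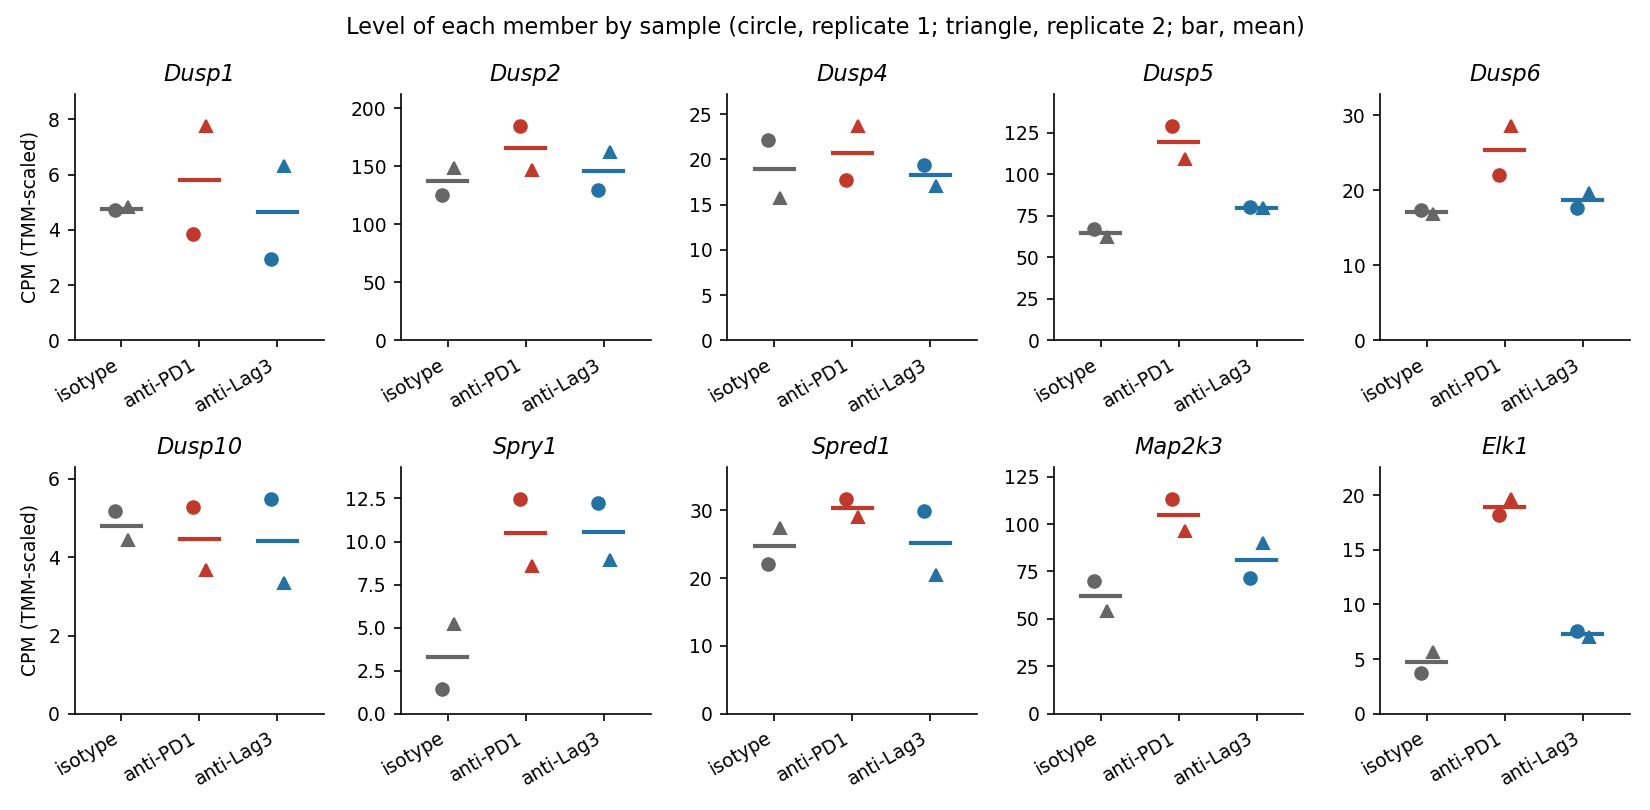
Level of each of the 10 genes in CPM (vertical axes, each from 0) in the 2 samples of isotype, anti-PD1 and anti-Lag3; circles are replicate 1, triangles replicate 2 and bars the group mean. Dusp5, Dusp6, Map2k3 and Elk1 are highest in both anti-PD1 samples, Spry1 is higher than isotype in all 4 antibody samples, and Dusp1, Dusp2, Dusp4 and Dusp10 overlap between groups.

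With PD1 blockade during the second challenge, 1 of the 6 phosphatases, the kinase and the ERK target factor were called higher in RNA. Dusp5, Map2k3 and Elk1 rose against isotype by 1.84-fold, 1.69-fold and 3.95-fold, and none of the 10 genes was called lower. These 3 of 10 stand against 0.901% of all 11877 genes called at an adjusted p under 0.05 in either direction (107 genes) and 0.631% called higher (75 genes). The other 5 phosphatases and both Ras-ERK inhibitors did not pass the test. The median log2 fold change of the 10 genes was 0.43, beside 0.0045 over all genes tested. Because the 10 genes were chosen with earlier results of these data known, neither contrast is a test of the set.

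Dusp5 was the only phosphatase called higher. It had 143 and 155 reads in isotype, 270 and 268 in anti-PD1 and 190 and 215 in anti-Lag3. In CPM these were 67.4 and 62.4 in isotype, 129 and 110 in anti-PD1, and 80.1 and 79.9 in anti-Lag3. The 3 groups did not overlap, with anti-PD1 highest and isotype lowest. The log2 fold change of anti-PD1 over isotype was 0.88 (SE 0.165, 95% interval 0.55 to 1.21, adjusted p = 0.00114, edgeR quasi-likelihood test with Benjamini-Hochberg adjustment), the 43rd smallest p of all genes tested. The call was kept in the 9 fits with another tool, scaling, filter or set of terms, with adjusted p from 5.59e-05 to 0.00723. It was lost without isotype replicate 2 (adjusted p = 0.0553) and without anti-PD1 replicate 1 (adjusted p = 0.102), where the log2 fold changes were 0.82 and 0.76.

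The Dusp5 gene lies on chromosome 19 at 53529109 to 53542431 on the plus strand (GRCm38). Its RefSeq promoter window, which runs from 250 bases before the start to 50 bases from it on, is shown because it holds a pair of adjoining CArG boxes, the letters CC, 6 A or T bases and GG that SRF binds, with ELK1 as a partner at some genes. The window is chr19:53528895-53529194, plus strand of GRCm38.p6, and capitals mark the CArG boxes and, after them, CGTCA, the reverse complement of TGACG:
Dusp5: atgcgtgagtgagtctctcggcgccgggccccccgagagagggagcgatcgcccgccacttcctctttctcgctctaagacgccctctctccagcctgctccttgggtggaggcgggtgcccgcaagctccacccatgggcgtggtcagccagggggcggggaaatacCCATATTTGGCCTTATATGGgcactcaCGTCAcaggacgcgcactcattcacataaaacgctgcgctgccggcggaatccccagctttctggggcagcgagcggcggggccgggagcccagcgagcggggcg
The boxes lie at bases -82 to -73 and -72 to -63 from the start, and the CGTCA at -55 to -51. A CArG box was found in 1.63% of the 32817 RefSeq windows of this length, and a pair or more in only 6 windows (0.018%), of the genes Ceacam11, Dusp5, Gm33934, Gm39572 and Srf. TGACG, the core of the site for CREB and ATF factors, was found in 20.8% of windows on either strand. GGAAGT, a core of ETS factor sites, also occurs in the Dusp5 window on the reverse strand, at -193 to -188, as it does in 23.8% of windows. A match of letters is a description and no evidence of binding in these cells.

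Dusp1, a nuclear phosphatase of p38, JNK and ERK and a classic early response gene, was at the low end. Its reads were 10 and 12 in isotype, 8 and 19 in anti-PD1, and 7 and 17 in anti-Lag3. Each antibody group spanned the isotype pair, with 1 sample below and 1 above. Its log2 fold change was 0.30 (SE 0.628, edgeR adjusted p = 0.973) for anti-PD1 and -0.03 (SE 0.638, edgeR adjusted p = 0.995) for anti-Lag3. With 7 to 19 reads a sample the 95% interval for anti-PD1 ran from -0.97 to 1.56, so changes in either direction within it remain compatible with these counts. Taken over all its transcripts, its last 1000 exon bases share 11 with Ergic1 on the other strand. The Dusp1 gene spans 26505590 to 26562128 on the minus strand, and Ergic1 begins at 26561489. The shared bases therefore lie near the 5′ end of the gene, away from its 3′ end at 26505590.

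The Dusp1 promoter window (chr17:26508423-26508722, minus strand of GRCm38.p6) is shown beside that of Dusp5 because it holds the other kind of site, the full palindrome TGACGTCA that CREB and ATF factors bind. Capitals mark TGACG and TGACGTCA:
Dusp1: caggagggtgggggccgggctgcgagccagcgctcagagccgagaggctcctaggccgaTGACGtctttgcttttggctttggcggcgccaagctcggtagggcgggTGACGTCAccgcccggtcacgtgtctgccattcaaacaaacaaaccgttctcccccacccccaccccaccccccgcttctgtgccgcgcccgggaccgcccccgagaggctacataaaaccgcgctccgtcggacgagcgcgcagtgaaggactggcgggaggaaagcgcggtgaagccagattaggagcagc
TGACG begins at -191, the palindrome spans -143 to -136, and 1.79% of all windows hold the palindrome. The palindrome reads TGACG on both strands, so the window has 3 matches to TGACG in all. No CArG box was found in this window.

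Windows were given for 9 of the 10 genes, Dusp4 being the exception. Dusp2 has CGTCA at 5 to 9 bases from its start. The windows of Dusp6, Dusp10, Spry1, Spred1, Map2k3 and Elk1 hold none of the 5 motifs searched on both strands. These were the CArG box, the palindrome, its core and the ETS core given above, and the AP-1 site. The AP-1 site, searched as TGANTCA, was found in 7.81% of all windows and in none of the 9. Of the 3 genes called higher, therefore, Dusp5 has matches and Map2k3 and Elk1 have none within these windows.

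Dusp2, the most abundant of the 10 genes, had 125 and 149 CPM in isotype, 185 and 147 in anti-PD1 and 130 and 162 in anti-Lag3. One anti-PD1 sample stood above all others and the second lay within the isotype range. For anti-PD1 its log2 fold change was 0.27 (SE 0.146, 95% interval -0.02 to 0.57, edgeR adjusted p = 0.681). It was the most precisely measured of the 10, so that a rise as large as that of Dusp5 lies outside its interval, although the 2 genes were not tested against each other by the fit. Dusp4, a nuclear phosphatase of ERK and JNK, had 22.1 and 15.7 CPM in isotype, 17.7 and 23.7 in anti-PD1 and 19.4 and 17.1 in anti-Lag3. Its 3 groups overlapped, and the log2 fold changes were 0.15 (SE 0.323, edgeR adjusted p = 0.973) for anti-PD1 and -0.05 (SE 0.324, edgeR adjusted p = 0.995) for anti-Lag3.

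Dusp6, which acts on ERK in the cytoplasm, had 17.4 and 16.9 CPM in isotype, 22.0 and 28.6 in anti-PD1 and 17.7 and 19.7 in anti-Lag3. Both anti-PD1 samples were above the other 4. The log2 fold change for anti-PD1 was 0.57 (SE 0.309, 95% interval -0.06 to 1.19, edgeR adjusted p = 0.687), which did not pass the test. Dusp10, which prefers JNK and p38 to ERK, had 9 to 13 reads in every sample. Its groups overlapped, and its interval for anti-PD1 ran from -1.45 to 1.24 around a log2 fold change of -0.11 (edgeR adjusted p = 0.988).

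Among the reads of the 6 phosphatases, the share of Dusp5 is independent of how libraries were scaled. It was 27.8% (95% Wilson interval 24.1 to 31.8) and 24.7% (21.5 to 28.2) in isotype. In anti-PD1 it was 35.6% (32.3 to 39.1) and 34.2% (30.9 to 37.6). In anti-Lag3 it was 31.4% (27.8 to 35.2) and 27.7% (24.6 to 30.9). The anti-PD1 pair was above the other 4 samples, and the anti-Lag3 pair overlapped with isotype. The intervals cover counting error only. The mean share was 8.65 percentage points higher in anti-PD1 than in isotype, with an exact two-sided permutation p = 0.333, the smallest that 2 samples against 2 can give. The mean share of Dusp2 was 55.3% ± 4.95 in isotype and 48.4% ± 3.54 in anti-PD1 (SD, n = 2 each, exact permutation p = 0.333). Shares of the same total are linked, so that of Dusp2 can fall where Dusp5 rises. The log2 fold change of Dusp2 itself for anti-PD1 was 0.27, which did not pass the test. The 6 phosphatases summed to 242 and 253 CPM in isotype, 363 and 321 in anti-PD1, and 256 and 289 in anti-Lag3.

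Spry1, an inhibitor of Ras-ERK signalling that receptors induce, had point estimates of about 3-fold in both antibody groups. It had 3 and 13 reads in isotype, 26 and 21 in anti-PD1 and 29 and 24 in anti-Lag3, or 1.41 and 5.23, 12.5 and 8.59, and 12.2 and 8.91 CPM. All 4 antibody samples were above both isotype samples, of which replicate 1 was at the floor of 3 reads. The log2 fold changes were 1.60 (SE 0.548, unadjusted p = 0.0058, edgeR adjusted p = 0.238) for anti-PD1 and 1.61 (SE 0.542, unadjusted p = 0.00511, edgeR adjusted p = 0.642) for anti-Lag3. Neither passed the test, and no alternative fit called either. The isotype pair decided the size: for anti-PD1 it was 0.99 without isotype replicate 1 and 2.84 without isotype replicate 2, and for anti-Lag3 1.00 and 2.85. The 2 antibody groups differed by -0.01 on the log2 scale, with an interval of -0.96 to 0.94.

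Spred1, which also restrains Ras-ERK signalling, had 22.1 and 27.4 CPM in isotype, 31.6 and 29.0 in anti-PD1 and 29.9 and 20.4 in anti-Lag3. The anti-PD1 pair lay above isotype and the anti-Lag3 pair spanned it. The log2 fold change for anti-PD1 was 0.29 (SE 0.278, 95% interval -0.28 to 0.85, edgeR adjusted p = 0.892).

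Map2k3 (chromosome 11, 60932033 to 60952811, plus strand, GRCm38), the kinase that phosphorylates p38, had 148 and 135 reads in isotype, 236 and 235 in anti-PD1 and 170 and 242 in anti-Lag3. These were 69.7 and 54.3, 113 and 96.1, and 71.7 and 89.9 CPM. The groups did not overlap, although the lower anti-Lag3 sample was close to the higher isotype sample. Anti-PD1 gave a log2 fold change of 0.76 (SE 0.177, 95% interval 0.40 to 1.11, edgeR adjusted p = 0.0162). DESeq2 did not call it (adjusted p = 0.123), and edgeR did not without isotype replicate 2 (adjusted p = 0.418), anti-PD1 replicate 1 (adjusted p = 0.369) or anti-PD1 replicate 2 (adjusted p = 0.0595).

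Elk1 (X chromosome, 20933395 to 20950608, minus strand, GRCm38), the ternary complex factor that ERK phosphorylates, had the largest fold change of the 10. It had 8 and 14 reads in isotype, 38 and 48 in anti-PD1 and 18 and 19 in anti-Lag3, or 3.77 and 5.64, 18.2 and 19.6, and 7.59 and 7.06 CPM. The anti-PD1 pair stood far above the other 4 samples, and anti-Lag3 lay between without overlap. The log2 fold change for anti-PD1 was 1.98 (SE 0.442, 95% interval 1.09 to 2.88, edgeR adjusted p = 0.00896). DESeq2 gave 2.00 but an adjusted p of 0.106, and leaving out any of the 4 isotype or anti-PD1 samples ended the call in edgeR. The adjusted p was then 0.117 without isotype replicate 1, 0.0553 without isotype replicate 2, 0.0832 without anti-PD1 replicate 1 and 0.166 without anti-PD1 replicate 2. The direction was kept in each of these fits, with log2 fold changes of 1.74 to 2.31. Uxt overlaps the Elk1 gene on the same strand but shares none of its last 1000 exon bases. The other ternary complex factors Elk3 and Elk4 had log2 fold changes of -0.11 each and their partner Srf of 0.10, with edgeR adjusted p of 0.966 to 0.981.

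Both anti-PD1 samples were above both isotype samples in 6 of the 10 genes (Dusp5, Dusp6, Spry1, Spred1, Map2k3 and Elk1), against 19.2% of all genes tested. At an unadjusted p under 0.05 there were 4 (Dusp5, Spry1, Map2k3 and Elk1), against 8.12%. The way the list was chosen limits these contrasts too.

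**Figure D2:**
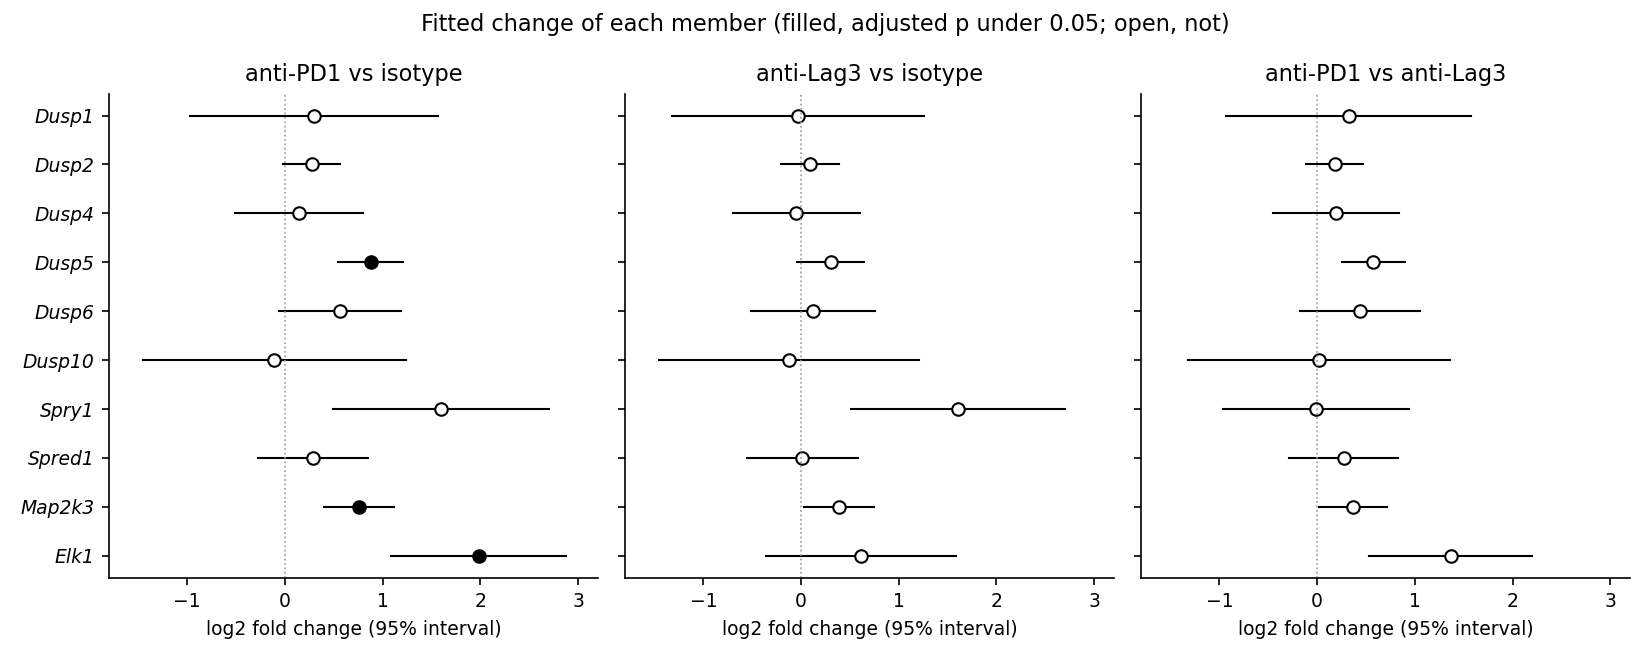
Fitted log2 fold change of each of the 10 genes (points) with its 95% interval (lines) in the 3 comparisons; the dotted line marks no change, and filled points passed an adjusted p under 0.05. The filled points are Dusp5, Map2k3 and Elk1 in anti-PD1 against isotype, and Spry1 lies at 1.60 and 1.61 in the comparisons with isotype.

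Lag3 blockade gave no call among the 10 genes, with the same 2 isotype samples as reference. Here 0.0421% of all genes were called in either direction (5 genes) and 0.0253% higher (3 genes), so a count of 0 in 10 is what the background gives. At an unadjusted p under 0.05 there were 2, Spry1 and Map2k3, against 5.96% of all genes, and DESeq2 and limma-voom called none of the 10 either. Both anti-Lag3 samples were above both isotype samples in 5 genes (Dusp5, Dusp6, Spry1, Map2k3 and Elk1), against 17.3%. Map2k3 had a log2 fold change of 0.39 (95% interval 0.03 to 0.75, edgeR adjusted p = 0.800), Dusp5 of 0.30 (interval -0.04 to 0.64, edgeR adjusted p = 0.854) and Elk1 of 0.62 (interval -0.35 to 1.59, edgeR adjusted p = 0.930). Dusp2, Dusp6 and Spred1 lay between 0.01 and 0.13, and Dusp10 was at -0.13. The median of the 10 genes was 0.11, beside 0.00071 over all genes.

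The 2 antibodies were also compared directly. None of the 10 genes differed between anti-PD1 and anti-Lag3 at an adjusted p under 0.05, where 0.303% of all genes did (36 genes), 0.244% being higher in anti-PD1 (29 genes). Dusp5 was 0.58 higher on the log2 scale in anti-PD1 (95% interval 0.25 to 0.90, unadjusted p = 0.000891, edgeR adjusted p = 0.171). Elk1 was 1.37 higher (interval 0.54 to 2.20, unadjusted p = 0.0019, edgeR adjusted p = 0.231) and Map2k3 0.37 higher (interval 0.02 to 0.71, unadjusted p = 0.0387, edgeR adjusted p = 0.739). These 3 were the genes at an unadjusted p under 0.05, against 6.53% of all genes, and DESeq2 and limma-voom called none of the 10. Both anti-PD1 samples were above both anti-Lag3 samples in Dusp5, Dusp6, Map2k3 and Elk1, 4 of 10 against 18.2%. The fits therefore do not show at this threshold that the rise in anti-PD1 was larger than that in anti-Lag3 for any of the 3 genes called against isotype.

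The feedback genes were then set against the kinase and against the ERK target factor within each library, as log2 ratios of CPM + 0.5, in which library scaling nearly cancels. The ratio of Dusp5 to Map2k3 was -0.05 and 0.20 in isotype, 0.19 and 0.19 in anti-PD1, and 0.16 and -0.17 in anti-Lag3. The values overlapped in all groups, and the difference between anti-PD1 and isotype was 0.12 with a pooled SD of 0.123 (exact permutation p = 1). The ratio of Dusp5 to Elk1 was 3.99 and 3.36 in isotype, 2.80 and 2.45 in anti-PD1, and 3.32 and 3.41 in anti-Lag3. Both anti-PD1 values were below the other 4, and the mean was lower than in isotype by a difference of -1.05 (pooled SD 0.360, exact permutation p = 0.333, the smallest possible). In anti-PD1 the ratios to Elk1 of Dusp1, Dusp2, Dusp4, Dusp6, Dusp10 and Spred1 were also lower than in isotype, with differences of -1.39 to -2.03. None of these overlapped with isotype (exact permutation p = 0.333 each), while Spry1 (-0.21) did. Elk1 itself was called higher in anti-PD1, so the ratio to it falls for a gene that does not change. The mean ratios to Map2k3 of Dusp2, Dusp4 and Dusp10 differed between anti-PD1 and isotype by -0.48 (pooled SD 0.304), -0.62 (pooled SD 0.328) and -0.86 (pooled SD 0.138). That of Spred1 differed by -0.46 (pooled SD 0.333). In each, both anti-PD1 values were below both isotype values (exact permutation p = 0.333 each). Map2k3 was also called higher in anti-PD1, with the same effect on ratios to it. For Dusp1 and Dusp6 the differences of -0.57 and -0.22 were smaller than the pooled SDs of 0.615 and 0.340, and the samples overlapped. Spry1 to Map2k3 differed by 0.96 with a pooled SD of 0.980, also with overlap. Elk1 to Map2k3 differed by 1.17 with a pooled SD of 0.472, without overlap (exact permutation p = 0.333). For anti-Lag3 the ratio of Elk1 to Map2k3 differed from isotype by 0.23, with overlap. In anti-Lag3 the differences from isotype in the ratio to Map2k3 were -0.29 for Dusp2, -0.41 for Dusp4, -0.52 for Dusp10 and -0.37 for Spred1. They were -0.50 for Dusp1 and -0.26 for Dusp6. Those of Dusp4 and Dusp6 came without overlap. In the ratio to Elk1, anti-Lag3 differed from isotype by -0.52 for Dusp2, -0.65 for Dusp4 and -0.49 for Dusp6. The differences were -0.75 for Dusp10, -0.60 for Spred1 and 1.11 for Spry1. Each of these came without overlap (exact permutation p = 0.333 each), while Dusp1 (-0.73) and Dusp5 (-0.31) overlapped. Of the 34 ratios computed, none can give an exact p below 0.333.

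**Figure D3:**
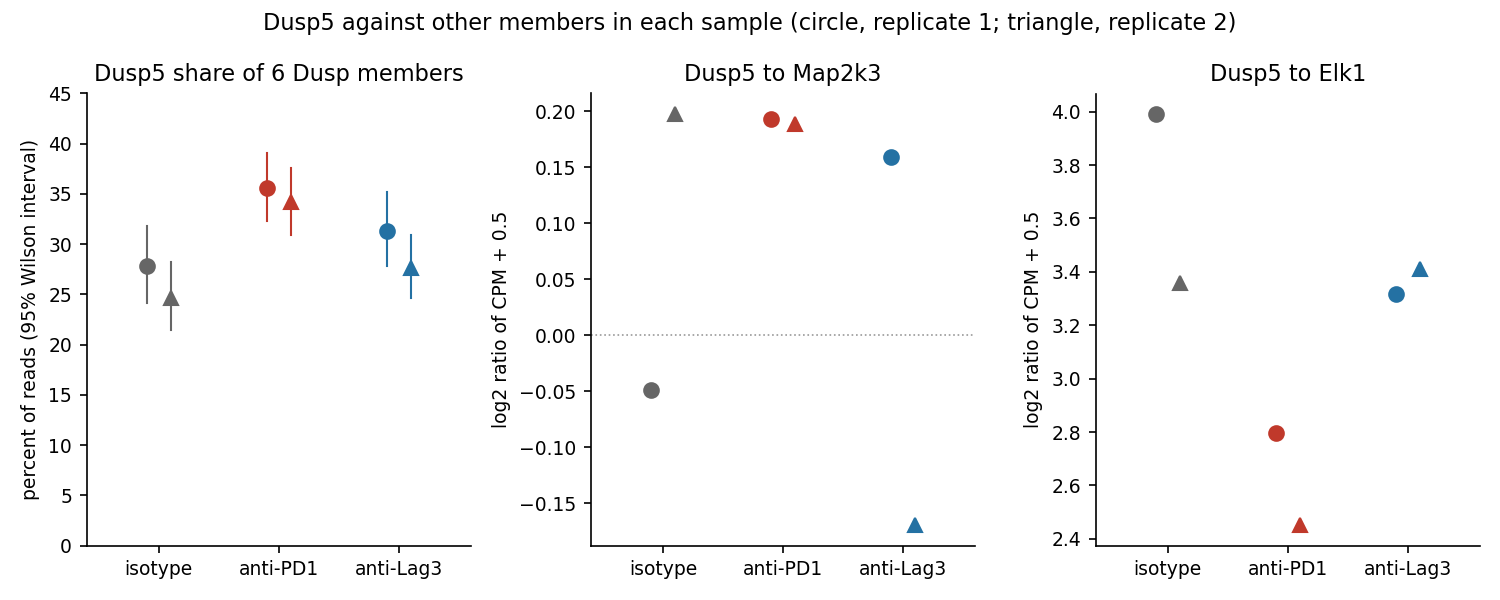
Dusp5 in each sample relative to other genes: its percent of the reads of the 6 phosphatases with a 95% Wilson interval (left, axis from 0), and its log2 ratio to Map2k3 (middle) and to Elk1 (right), with circles for replicate 1 and triangles for replicate 2. The anti-PD1 shares of 35.6% and 34.2% are the highest, the ratios to Map2k3 overlap, and the anti-PD1 ratios to Elk1 of 2.80 and 2.45 are the lowest.

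The rest of the pathway was read from 72 further genes in 9 lists, of which 62 passed the filter. None was called by edgeR, DESeq2 or limma-voom in any of the 3 comparisons, and in edgeR at an unadjusted p under 0.05 there were 11 of 62 in anti-PD1 against isotype (8.12% over all genes), 5 in anti-Lag3 against isotype (5.96%) and 4 between the antibodies (6.53%). Their medians were 0.05, 0.12 and -0.03 on the log2 scale. No other phosphatase or Sprouty gene was called: of Dusp7, Dusp8, Dusp9 and Dusp16 only 2 passed the filter, with Dusp8 at 0 reads in all samples, and Spry2 and Spry4 had 4 and 5 reads over the 6 samples together.

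The 11 pathway genes at an unadjusted p under 0.05 in anti-PD1 against isotype are named here after their values were seen. Fosl2, an AP-1 subunit, had 17.4 and 9.66 CPM in isotype, 25.4 and 36.8 in anti-PD1, and 23.6 and 13.4 in anti-Lag3. The anti-PD1 pair was above the other 4 samples, with a log2 fold change over isotype of 1.22 (SE 0.339, edgeR adjusted p = 0.0739). In edgeR it passed when only the 4 samples of the comparison were fitted (adjusted p = 0.0150) and when genes with at least 1 read were kept (adjusted p = 0.0262). It also passed with a replicate block (edgeR adjusted p = 0.0318), so it lay near the threshold. The kinases Map3k8, which activates MEK in lymphocytes, Map2k4, of the JNK branch, and Map3k5 had log2 fold changes of 0.86, 0.74 and 0.70 with edgeR adjusted p of 0.133, 0.181 and 0.352. Junb, an AP-1 subunit, had 0.48 (edgeR adjusted p = 0.183) and Mapk8, a JNK kinase gene, had 0.63 (edgeR adjusted p = 0.525). Fosl1, another AP-1 subunit, had 1 and 0 reads in isotype and 9 and 11 in anti-PD1, at least 3.36-fold higher when isotype is set at the floor of 3 reads per library, and did not pass the test (edgeR adjusted p = 0.277). Egr1, an immediate early gene of ERK and SRF, had a log2 fold change of -0.64 (SE 0.239, edgeR adjusted p = 0.345), and Mapk3, an ERK kinase gene, of -0.75 (SE 0.325, edgeR adjusted p = 0.488). The kinase gene Map3k7 had -0.50 (edgeR adjusted p = 0.323) and the Ras exchange factor Rasgrp1 had -0.60 (edgeR adjusted p = 0.485). These 4 point estimates were below 0 and those of the other 7 genes above it.

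Between the antibodies, Fosb, also an AP-1 subunit, had 22 and 12 reads in isotype, 22 and 20 in anti-PD1, and 0 and 9 in anti-Lag3. Both anti-Lag3 samples were the lowest, and the log2 difference between anti-PD1 and anti-Lag3 was 2.38 (SE 0.710, edgeR adjusted p = 0.230). It passed with genes of at least 1 read kept (adjusted p = 0.0444) and without anti-Lag3 replicate 2 (adjusted p = 0.0081), which leaves only the sample with 0 reads in that group.

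**Figure D4:**
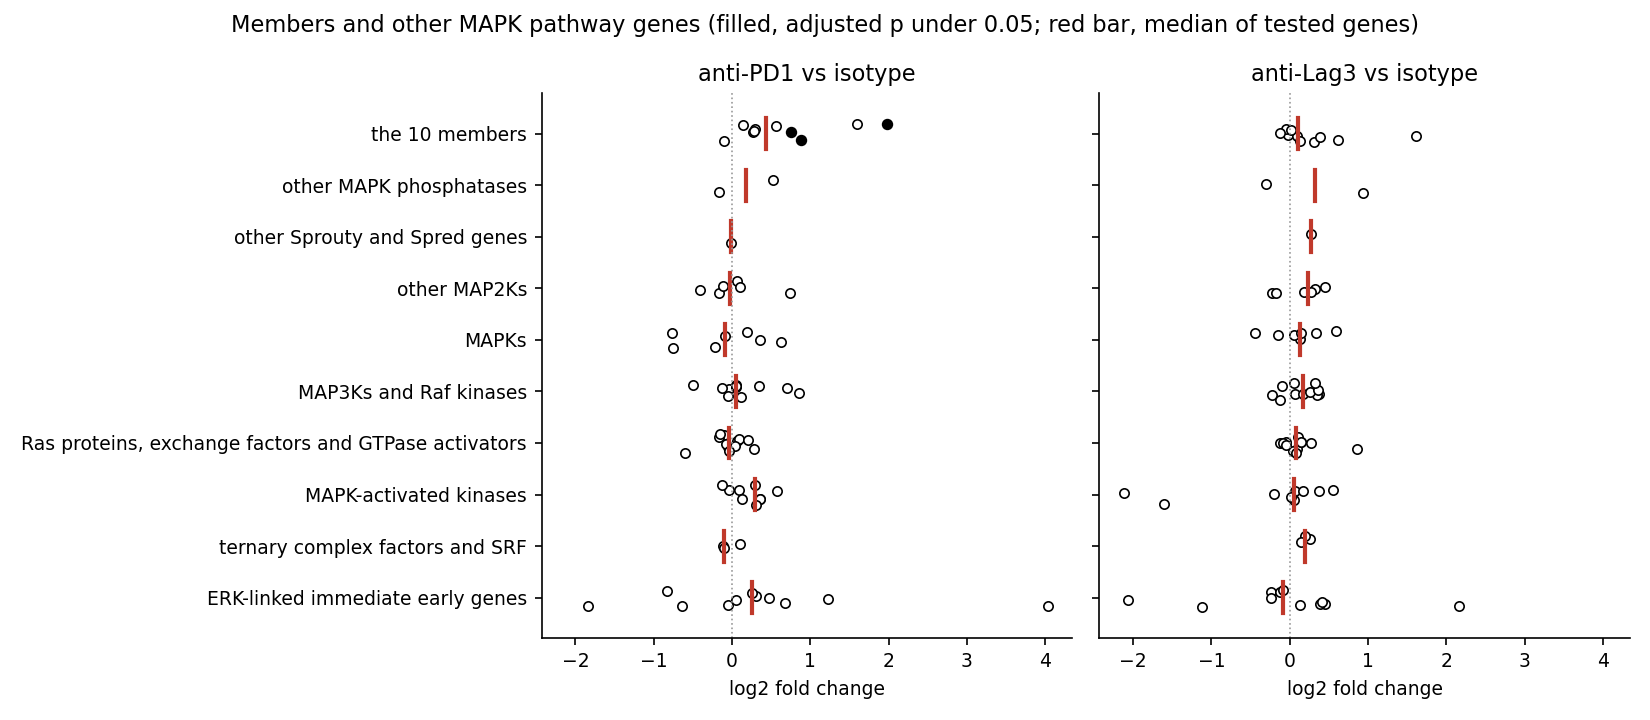
Fitted log2 fold change of the 10 genes and of the tested genes of 9 further MAPK pathway lists (rows) against isotype, for anti-PD1 (left) and anti-Lag3 (right) on the same scale; each point is a gene, filled where the adjusted p was under 0.05, and red bars are medians of tested genes. The 3 filled points are Dusp5, Map2k3 and Elk1 in anti-PD1, and the point at 4.03 is Fosl1, which had 1 and 0 reads in isotype.

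The genes whose log2 CPM was most like that of the 3 called genes over the 6 samples were taken from those with a mean of at least 20 CPM, as a description with no test. For Dusp5 these were Camsap2, Gpr65, Eed, Stat5a and Ube2j2, with Pearson r of 0.980 to 0.997. For Map2k3 they were Tpm4, Med15, Dnaja2, Med11 and Gypc, with r of 0.977 to 0.991. For Elk1 they were Camsap1, Nfkb2, Cnn3, Qk and N4bp2l2, with r of 0.979 to 0.995. The 3 lists hold no gene in common with each other. The 6 points share the 3 groups and their libraries, and 85 to 100 of about 5432 genes had r above 0.9 with each.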

How the data were processed

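Splenic CD4+ Nr4a3-Timer blue and red cells were sorted in 6 samples, 2 biological replicates per antibody. The authors made QuantSeq 3′ forward libraries, aligned reads to GRCm38 (mm10) with STAR 2.5.2a and counted them per gene with HTSeq; the annotation release and the strand setting are not given in the sources used here, so reads of antisense partners may not be separated. They left out, as outliers, 1 further batch of 3 samples handled together; whether the replicate numbers of the samples used here mark such batches is not stated. The deposited counts are raw whole-number counts per gene and were used as deposited. A second deposited table of transformed values was not used.

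Genes with at least 10 reads over the 6 samples were scaled by TMM and fitted in 1 edgeR 4.0.16 model of all groups (quasi-likelihood test, Benjamini-Hochberg adjustment over all 11877 genes, threshold 0.05, R 4.3.3). Fold changes are of the first group named over the second. CPM use TMM-scaled library sizes. With 2 samples per group the shared spread carries the test (prior degrees of freedom 37.2). Names and positions came from GENCODE M21, which matched 47224 of 47643 identifiers, and promoter windows from RefSeq GRCm38.p6. Ratios and shares were compared by exact two-sided permutation.

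On simulated counts for anti-PD1 against isotype, in which 200 of 11573 genes had a log2 change of 1, edgeR found 55.0% of them with 2.65% false calls, and DESeq2 47.0%. The changed genes were drawn only from genes with more reads than the filter requires, so recovery of genes near the filter was not measured. DESeq2 1.42.0, limma-voom (limma 3.58.1), other scalings and filters, a fit of 4 samples, a replicate term and leaving out each sample were alternatives.

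The genes, their lists and the rule for naming were chosen with earlier results of these data known. All 10 genes are named. Of the pathway lists, called genes (up to 3 per list) were to be named, and the highest expressed gene of a list could be; those genes are not reported here. For each called gene the 5 most alike by Pearson r were named.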

Additional observations from a re-analysis of the deposited data

How the results depend on the processing

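With groups of 2, 1 library can decide a call, and a group left with 1 sample is assumed to vary like the others. For anti-PD1 against isotype the main count of 3 of the 10 genes was 1 with DESeq2 (Dusp5) and 0 to 3 with 1 sample left out. The count over all genes (107) was 175 in the fit of 4 samples and 53 to 185 with 1 sample left out. Against isotype, anti-Lag3 (5) gave 1 with DESeq2, 0 in the fit of 4 samples, 3 without Gm42418 and mitochondrial rRNA, 0 with filterByExpr, 20 with genes of at least 1 read, and 0 to 19 with 1 sample left out. Between the antibodies (36) the counts were 16 with DESeq2, 58 with genes of at least 1 read, and 7 to 59 with 1 sample left out. Of the other pathway genes (0 in each comparison), 1 was called for anti-PD1 against isotype in the fit of 4 samples, with genes of at least 1 read and with a replicate block (Fosl2 each time, adjusted p = 0.0318 with the block), 1 between the antibodies with genes of at least 1 read (Fosb), and 0 to 1 in each comparison with 1 sample left out. The cause of these differences was not tested.

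The replicate set that the study left out was sorted and processed as 1 batch, but the labels do not say that a replicate number marks one. The data gave no sign of it, with correlations between the deviations of same-numbered samples of 0.048, 0.050 and -0.049 over 5433 genes. With the replicate block the calls of Dusp5, Map2k3 and Elk1 stood, and the count of members called was 3.

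Genes that did not pass the test changed sign as follows. Under limma-voom, Spred1 for anti-Lag3 was -0.022. With 1 sample left out, log2 fold changes for anti-PD1 against isotype ranged from -0.32 to 0.70 for Dusp1, -0.089 to 0.41 for Dusp4 and -0.38 to 0.13 for Dusp10. For anti-Lag3 against isotype they ranged from -0.68 to 0.39 for Dusp1, -0.072 to 0.24 for Dusp2, -0.28 to 0.22 for Dusp4, -0.52 to 0.20 for Dusp10 and -0.29 to 0.28 for Spred1. Between the antibodies they ranged from -0.29 to 0.97 for Dusp1, -0.043 to 0.38 for Dusp4, -0.31 to 0.41 for Dusp10 and -0.29 to 0.24 for Spry1. Of the ratios to Map2k3 for anti-PD1, 4 changed sign: Dusp5 ranged from -0.0066 to 0.24, Dusp1 from -1.15 to 0.012, Dusp6 from -0.52 to 0.083 and Spry1 from -0.013 to 1.93. For anti-Lag3, Dusp2 (-0.59 to 0.0097), Dusp5 (-0.24 to 0.085), Spred1 (-0.81 to 0.059) and Elk1 (-0.21 to 0.67) did. Of the ratios to Elk1, Spry1 for anti-PD1 (-0.74 to 0.32) and Dusp5 for anti-Lag3 (-0.63 to 0.0061) changed sign. In isotype Dusp1, Dusp10, Elk1 and Spry1 rest on fewer than 15 reads a sample.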
